A study of Mus musculus with 4 samples.

Results

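The 6 ZFP57 binding sites described here lie in or beside Cmtm4, Arhgef10, Ccdc11, Qrsl1, Ube2w and Tmem86a, are 6 of the 158 deposited sites, and are called members here. They were chosen by their allele-specific reads and their motif counts: at each, ZFP57 was bound mostly to the BL6 or mostly to the Cast chromosome in both reciprocal crosses, and the numbers of intact ZFP57 motifs differed between the strains. The read shares and motif counts of these sites are therefore a description, with no test, and so are the densities and gene features compared between the members with more motifs on BL6 and those with more on Cast. The deposited table does not name a gene at these sites, and the gene names are those of the annotated gene that each site overlaps or, for Ccdc11, follows.

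ZFP57 was measured by chromatin immunoprecipitation and sequencing (ChIP-seq) in hybrid mouse embryonic stem (ES) cells, 1 library per cross. The BC library came from C57BL/6J x Cast/EiJ cells (BL6 mother, Cast father) and the CB library from Cast/EiJ x C57BL/6J cells (Cast mother, BL6 father). Both were hybrid ES cell lines grown in N2B27 medium with 500 U/ml LIF, 1 µM PD0325901 and 3 µM CHIR99021, fixed in 1% formaldehyde, and precipitated with an antibody to ZFP57. An input library was made for each cross and was not used here. Each cross was represented by 1 cell line and 1 ChIP library, so a difference between BC and CB cannot be told apart from one between lines or libraries, and there is no replicate error. Over all sites, 10541 reads in BC and 5904 in CB carried a single nucleotide difference that assigned them to BL6 or Cast.

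ZFP57 is a KRAB zinc finger protein that binds the sequence TGCCGC when its central CpG is methylated and recruits KAP1 (TRIM28), SETDB1 and DNA methyltransferases. It is best known for keeping parental methylation at imprinted control regions in the early embryo and in ES cells, where it is bound to the methylated parental allele. In reciprocal crosses, binding that follows parental origin changes strain when the cross is reversed, whereas binding that follows sequence stays with the same strain. None of the 8 genes of this pathway that were looked up (Zfp57, Trim28, Setdb1, Uhrf1, Dnmt1, Dnmt3a, Dnmt3b, Dppa3) had a binding site within 10 kb, a count of 0.

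The sequences of the sites are shown first because the base differences between the strains define this group. BL6 sequences are those of the NCBIM37 genome and Cast sequences are those of Cast DNA sequenced by the study, all on the plus strand. Capitals mark each position of a TGCCGCN motif (N being any base, on either strand) that is intact in at least 1 strain. Substitutions are written with the BL6 base first, then the position counted from 1 at the 5′ end of the motif on its own strand, then the Cast base.

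The Cmtm4 site (chr8:106889568-106889680) lay in intron 1 of 3 of Cmtm4, which encodes a MARVEL-domain membrane protein that helps to keep PD-L1 at the cell surface. The gene runs on the minus strand, and the site was 29972 bp from its start, over a SINE repeat. Its single motif, TGCCGCG on the minus strand, was changed in Cast by C6T, so the sequenced Cast fragment held no intact motif.
Cmtm4 BL6: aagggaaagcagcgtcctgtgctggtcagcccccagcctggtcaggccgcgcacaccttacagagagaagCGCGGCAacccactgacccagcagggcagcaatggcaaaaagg
Cmtm4 Cast: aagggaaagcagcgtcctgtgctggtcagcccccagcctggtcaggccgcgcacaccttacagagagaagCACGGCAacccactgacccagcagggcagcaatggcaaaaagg

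The Arhgef10 site (chr8:14958849-14958960) lay in intron 15 of 28 of Arhgef10, also over a SINE repeat. Inside the site the BL6 and Cast sequences were identical, with 2 intact motifs on both. The motif that differed, changed in Cast by C4T, began 102 bp past the end of the site, and its surroundings (chr8:14959050-14959080) follow the site. This was also the single base difference found in the sequenced fragment of 438 bp.
Arhgef10 site, BL6 and Cast alike: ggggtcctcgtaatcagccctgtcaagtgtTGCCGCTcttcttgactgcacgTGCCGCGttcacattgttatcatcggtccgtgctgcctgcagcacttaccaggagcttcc
Arhgef10 motif outside the site, BL6: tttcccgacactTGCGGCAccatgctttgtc
Arhgef10 motif outside the site, Cast: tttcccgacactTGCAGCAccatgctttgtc

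The Qrsl1 site (chr10:43608769-43608880) overlapped coding exon 5 of 11 of Qrsl1, which encodes the A subunit of the mitochondrial glutamyl-tRNA amidotransferase. Of its 112 bp, 106 were coding. The site held a row of motifs on the plus strand, and BL6 lacked the outer ones through T4C and T2G, while the motif between them was intact on both strains.
Qrsl1 BL6: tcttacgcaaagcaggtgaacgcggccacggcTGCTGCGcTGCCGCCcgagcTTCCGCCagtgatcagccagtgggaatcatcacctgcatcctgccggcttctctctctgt
Qrsl1 Cast: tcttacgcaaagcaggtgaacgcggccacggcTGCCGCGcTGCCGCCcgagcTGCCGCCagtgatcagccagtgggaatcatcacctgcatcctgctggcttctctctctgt

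The Ube2w site (chr1:16590994-16591110) lay in intron 2 of 5 of Ube2w, an E2 enzyme that attaches ubiquitin to the N terminus of its substrates. Its motifs were on the minus strand, and BL6 lacked the first of them through T2G while TGCCGCT was intact on both strains.
Ube2w BL6: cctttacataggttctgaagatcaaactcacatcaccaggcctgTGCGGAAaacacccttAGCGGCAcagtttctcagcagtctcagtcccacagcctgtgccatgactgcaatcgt
Ube2w Cast: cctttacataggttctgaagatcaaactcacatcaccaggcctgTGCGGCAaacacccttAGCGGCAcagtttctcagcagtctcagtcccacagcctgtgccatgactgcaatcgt

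The Tmem86a site (chr7:54308804-54308930) lay wholly in the coding part of exon 3 of 3 of Tmem86a, a membrane lysoplasmalogenase, 2857 bp from the start of the gene. Its single motif was incomplete in BL6 through C1T and intact in Cast, and it lay near the edge of the site, 47 bp before the centre.
Tmem86a BL6: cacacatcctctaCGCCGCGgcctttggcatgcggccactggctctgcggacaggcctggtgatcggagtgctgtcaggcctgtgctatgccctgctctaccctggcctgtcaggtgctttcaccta
Tmem86a Cast: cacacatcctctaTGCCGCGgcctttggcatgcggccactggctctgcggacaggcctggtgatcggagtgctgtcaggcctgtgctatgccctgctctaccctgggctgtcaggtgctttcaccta

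Over the 6 members, 7 motifs were intact in 1 strain and not in the other, and 6 motifs were intact in both. Of the 7, 6 were of the form TGCCGCR (R being a purine) and 1, at Qrsl1, ended in a pyrimidine. The CpG at positions 4 and 5 of the motif, the one that carries the methyl group ZFP57 reads, was kept on the strain with the altered motif in 4 of the 7, at Cmtm4, Ube2w and Tmem86a and in 1 of the pair at Qrsl1. It was lost in 3, at Arhgef10, at Ccdc11 and in the other motif at Qrsl1. Methylation of these CpGs was not analysed here.

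Base differences between the strains were also counted over each whole site, in motifs or outside them. At Cmtm4 and Ube2w the only difference inside the site was the altered motif base. Qrsl1 and Tmem86a also had a difference outside the motifs. Inside the sites there was 1 base difference at Cmtm4, 0 at Arhgef10, 3 at Qrsl1, 1 at Ube2w and 2 at Tmem86a, against 2, 1, 3, 1 and 2 single nucleotide differences in the deposited table. At Cmtm4 and Arhgef10 the table counted 1 more than lay inside the site, and the nearest outside difference was 10 bp past the end at Cmtm4 and 105 bp past it at Arhgef10. In the sequenced fragment, no base inside the Arhgef10 site could assign a read to a strain. The single difference that could do so lay outside the site, in the altered motif. Whether the Arhgef10 reads were counted over that base was not tested. At Cmtm4 the sequenced BL6 fragment departed from the genome at 2 bases, 1 of them inside the site, where Cast had the base of the genome, and these were not counted as strain differences.

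The total number of CpGs in a site differed little between the alleles. The Cmtm4 site had 5 CpGs on BL6 and 4 on Cast, and the Tmem86a site had 6 and 5, in the latter case with fewer on the strain that was bound more. The Arhgef10, Qrsl1 and Ube2w sites had 7, 9 and 3 on either strain. Equal totals can hide changes: at Qrsl1, Cast gained a CpG in a motif and lost another outside the motifs. In the coding exons, both altered motif bases at Qrsl1 and the one at Tmem86a were the base 3 of a codon, and the difference outside the motifs was base 2 of a codon at Qrsl1 and base 3 at Tmem86a.

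On either strand, the TGCCGCN motif was found in the genome sequence of 127 of the 158 sites (80.4%), and TGCCGCR in 116 (73.4%). The authors left out peaks without a binding motif, so these shares partly reflect how the sites were chosen. The median site had 6.20 CpGs per 100 bp and the median member 5.49, with a median GC content of 61.6% over all sites and 59.8% over the members. The median length was 114 bp for the members and 123.5 bp for all sites.

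**Figure D1:**
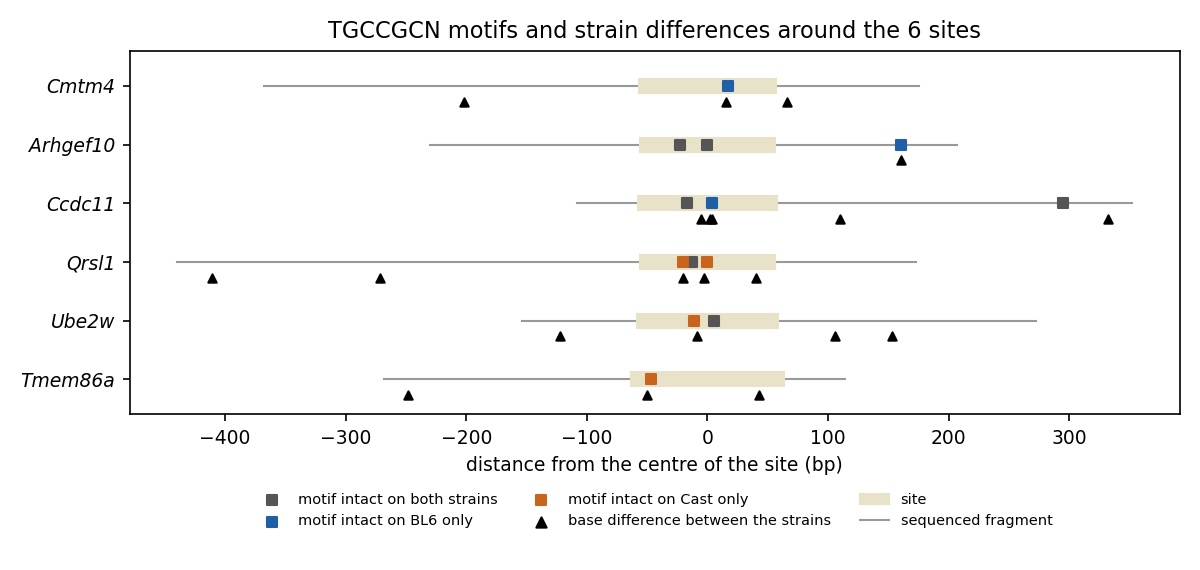
Map of TGCCGCN motifs and of base differences between BL6 and Cast around the 6 sites, with distance from the centre of each site in bp on the horizontal axis, squares for motifs, triangles for differences, a shaded bar for the site and a grey line for the sequenced fragment. The Arhgef10 motif intact on BL6 alone lies 160.5 bp from the centre, outside the site, and all other altered motifs lie inside their sites.

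The Ccdc11 site (chr18:74520206-74520320) was intergenic, 568 bp past the end of Ccdc11, which encodes a ciliary protein needed for left-right asymmetry, and it overlapped an LTR repeat. Of its motifs, 2 were intact on both strains, 1 inside the site and 1 lying 235 bp outside it, and 1 motif 4 bp from the centre was changed in Cast at 2 bases. It was the only altered motif among the 7 with more than 1 substitution. The site held 3 base differences between the strains, as many as the deposited table counted. It had 8 CpGs on either strain, a total that does not show the central CpG lost from the altered motif in Cast.

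Counted over the sequenced fragments, the intact TGCCGCR motifs were 1 on BL6 and 0 on Cast at Cmtm4, 2 and 1 at Arhgef10, and 3 and 2 at Ccdc11. They were 0 on BL6 and 1 on Cast at each of Qrsl1, Ube2w and Tmem86a. Motifs ending in a pyrimidine were 1 on each strain at Arhgef10 and Ube2w, 1 on BL6 and 2 on Cast at Qrsl1, and 0 at the others. These counts equalled those of the deposited table at all 6 sites, and within the site itself 5 of the 6 members differed between the strains, Arhgef10 being the exception.

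The reads of the 3 members with more intact motifs on BL6 were mostly from BL6. At Cmtm4, BC gave 114 BL6 and 12 Cast reads and CB gave 63 and 4. At Arhgef10, BC gave 50 BL6 and 0 Cast reads, which allows a Cast share of up to 6% (3 reads), and CB gave 40 and 1. By the sequenced fragment, no base inside the Arhgef10 site could have assigned these reads to a strain. At Ccdc11, BC gave 47 BL6 and 18 Cast reads and CB gave 36 and 10. BL6 reads were in the majority whether BL6 was the mother or the father, and Ccdc11 kept the largest Cast share of these sites.

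The reads of the 3 members with more intact motifs on Cast were mostly from Cast. At Qrsl1, BC gave 2 BL6 and 58 Cast reads and CB gave 5 and 27. At Ube2w, BC gave 0 BL6 and 22 Cast reads, which allows a BL6 share of up to 13.6% (3 reads), and CB gave 2 and 31. At Tmem86a, BC gave 23 BL6 and 59 Cast reads and CB gave 8 and 36. Cast reads were in the majority in both crosses, and Tmem86a kept the largest BL6 share of these sites.

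**Figure D2:**
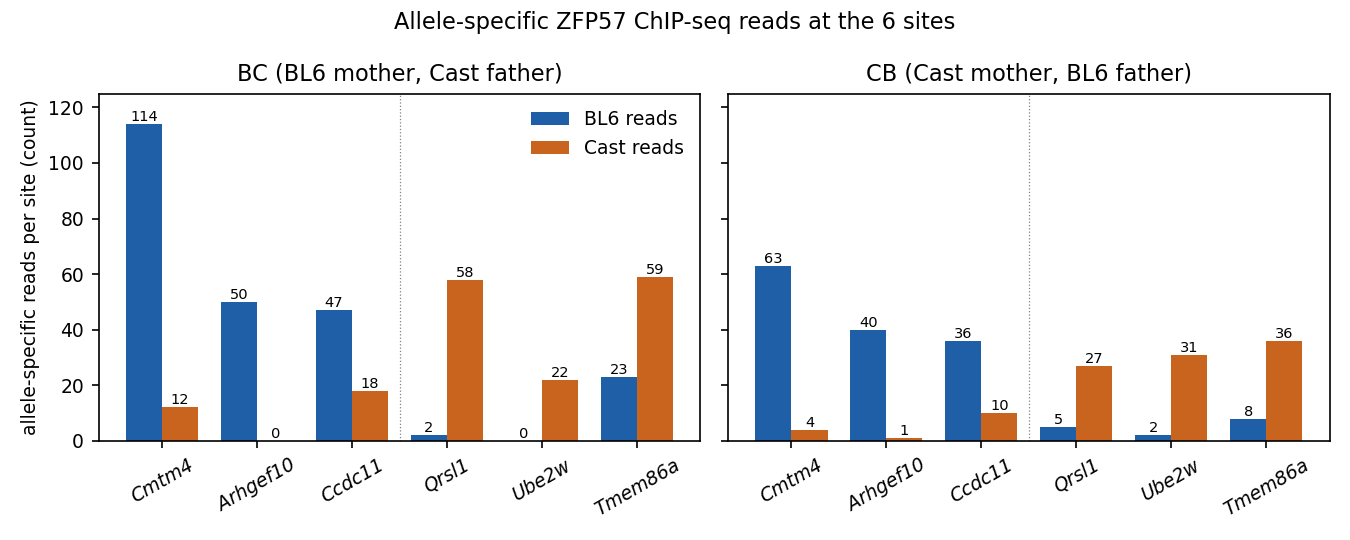
Allele-specific ZFP57 ChIP-seq reads (counts on the vertical axis, from 0) at the 6 sites in the BC library (left) and the CB library (right), blue for BL6 and orange for Cast, 1 library per cross. The strain with the taller bar is the same in both crosses at each site, BL6 at the 3 sites left of the dotted line and Cast at the 3 right of it.

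With the reads of both crosses pooled, the share on the strain with more intact motifs was 98.9% at Arhgef10 (95% Wilson interval 94.0 to 99.8%, 91 reads), 96.4% at Ube2w (87.7 to 99.0%, 55 reads), 92.4% at Qrsl1 (85.1 to 96.3%, 92 reads) and 91.7% at Cmtm4 (87.0 to 94.8%, 193 reads). It was 75.4% at Tmem86a (67.2 to 82.1%, 126 reads) and 74.8% at Ccdc11 (66.0 to 81.9%, 111 reads). In this order the intervals of neighbours overlapped, except between Cmtm4 and Tmem86a. With the crosses weighted equally, Cmtm4 (92.25%) came before Qrsl1 (90.52%). The intervals cover counting error only, since reads amplified by PCR are not independent molecules.

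The shares left on the other strain are set out here by how many intact motifs that strain kept, with no test. At the sites where that strain had 0 intact motifs in the fragment, it held 24.6% of the reads at Tmem86a and 8.29% at Cmtm4. Where it kept 1 intact motif, it held 7.61% at Qrsl1 and 3.64% at Ube2w. These are shares of pooled reads, and with the crosses weighted equally the share at Qrsl1 was above that at Cmtm4. Where it kept 2, it held 25.2% at Ccdc11 and 1.10% at Arhgef10. At Arhgef10 these 2 motifs were the ones inside the site, where the sequenced strains did not differ. Its share may therefore come from reads outside the site, over the altered motif, which was not tested.

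The median share over the 6 members was 92.1%. The 54 biallelic sites, those without a call by strain or by parental origin although BC and CB each had 10 or more reads assigned to a strain, had BL6 shares of 18.8 to 81.8% in BC (median 49.9%) and of 22.2 to 74.1% in CB (median 53.0%). The BL6 shares of Ccdc11 (72.3% in BC and 78.3% in CB) and Tmem86a (28.0% and 18.2%) were within this range in BC and beyond it in CB. Those of Cmtm4 (90.5% and 94.0%), Arhgef10 (100% and 97.6%), Qrsl1 (3.33% and 15.6%) and Ube2w (0% and 6.06%) were beyond it in both crosses.

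A site was called by strain at p under 0.0001 in a two-sided Fisher's exact test that set the reads of the maternal chromosome against those of the paternal one, by cross. A site that also passed the test of parental origin described later, as 1 site did, was counted under the test with the smaller p, which was the parental one. All 6 members were called by strain, as the way they were selected requires, 3 towards BL6 and 3 towards Cast. Among the 116 sites with allele-specific reads of both crosses, 17 (14.7%) were called towards BL6 and 9 (7.76%) towards Cast, and nothing is read from the members' count. The called site just inside the threshold (chr7:136141436-136141580) had BL6 shares of 42.6% in BC and 28.9% in CB, and the uncalled site just outside it (chr5:130163119-130163220) had 18.8% and 22.2%, with 16 and 27 reads.

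Motif counts, which chose the members, were also compared at the 20 other strain-called sites, counting TGCCGCN motifs with any last base. Equal counts can therefore include a motif whose last base changed between purine and pyrimidine, or no motif on either strain. In 6 of the 20 the bound strain had more intact motifs, in 10 the counts were equal, in 0 the other strain had more, and 4 had no pair of counts. More intact motifs on the bound strain were therefore not limited to the members.

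By the distance in percentage points between BL6 shares in BC and CB, over the 20 other strain-called sites, the site most like Tmem86a was at chr18:10044386-10044500 (2.38 points) and that most like Arhgef10 at chr18:37148308-37148420 (2.91 points). The closest to Ube2w was at chr7:134379476-134379600 (5.23 points), to Qrsl1 at chr11:115302489-115302600 (5.77 points) and to Cmtm4 at chr13:47106341-47106460 (5.82 points). Ccdc11 had the least similar neighbour, at chr8:79972545-79972660 (10.5 points).

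**Figure D3:**
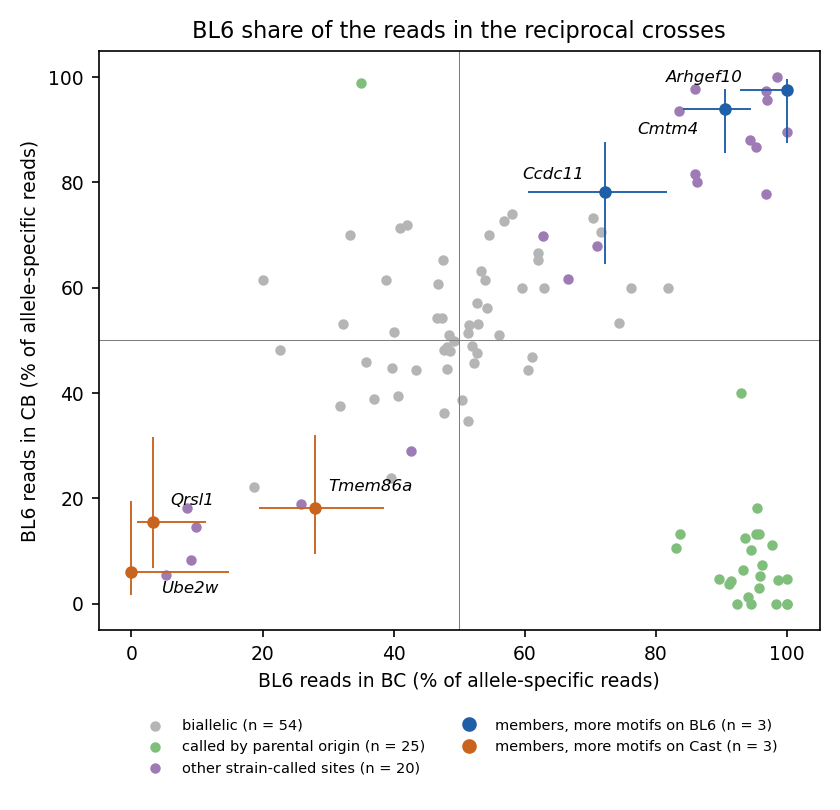
BL6 share of the allele-specific reads in CB (vertical axis, %) against that in BC (horizontal axis, %) for sites where BC and CB both had 10 or more, grey for biallelic sites, green for sites called by parental origin, purple for the 20 other strain-called sites and blue or orange for the 6 members, whose bars are 95% Wilson intervals. Thin lines mark 50%, and the members lie at the upper right where BL6 had more motifs and at the lower left where Cast had more.

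A call by parental origin was made at p under 0.0001 in a two-sided Fisher's exact test of BL6 and Cast reads by cross. The members were selected on a majority of the same strain in both crosses, in these same reads, so few such calls were possible among them. The count was 0 of 6, beside 26 of the 116 sites with reads of both crosses (22.4%). With Benjamini-Hochberg adjustment and an adjusted p under 0.05 it was 0 of 6, beside 31 of 116 (26.7%), and at an unadjusted p under 0.05 it was 1 of 6, Qrsl1, beside 36 of 116 (31.0%). Nothing is read from these counts, and the differences between the crosses at each member are given as a description.

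At Qrsl1 the share of reads on Cast was 96.7% in BC (88.6 to 99.1%) and 84.4% in CB (68.3 to 93.1%), a difference of 12.3 percentage points (95% Newcombe interval 0.407 to 28.6, not adjusted for the 6 members). The Cast allele was maternal in CB, where its share was lower. The other differences between BC and CB in the share on the strain with more motifs were smaller, with intervals that included 0. They were -9.87 points at Tmem86a (-23.5 to 6.36), 6.06 at Ube2w (-9.44 to 19.6), -5.95 at Ccdc11 (-21.2 to 10.8), -3.55 at Cmtm4 (-10.9 to 5.75) and 2.44 at Arhgef10 (-4.97 to 12.6).

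The deposited read density, scaled by the authors for peak length and aligned reads, was 166 in BC and 62 in CB at Cmtm4, 112 and 63 at Arhgef10, and 60 and 38 at Ccdc11. It was 74 and 22 at Qrsl1, 38 and 42 at Ube2w, and 108 and 31 at Tmem86a. In the 158 sites the median density was 107 in BC and 38.5 in CB, and the members' medians were 91 and 40, with no test of the difference. Cmtm4 ranked 42nd of 158 in BC and 30th in CB, and Ube2w ranked 153rd and 70th. Ube2w, with a mean percentile rank of 97.7 among candidate peaks, carried a ChIP-qPCR mark in the deposited table, as did Cmtm4 and Qrsl1.

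The members with more motifs on BL6 had densities of 60 to 166 in BC (median 112) and 38 to 63 in CB (median 62), and those with more motifs on Cast had 38 to 108 (median 74) and 22 to 42 (median 31). The ranges overlapped in both crosses. All 3 of the former lay in repeats (2 in a SINE and 1 in an LTR), and 0 of the latter did, against 45 of all 158 sites (28.5%) and 9 of the 20 other strain-called sites (45%). Of the latter, 2 lay in coding exons and 1 in an intron, and of the former 2 lay in introns and 1 was intergenic. Over all 158 sites, 46 lay in exons (29.1%), 46 in introns (29.1%) and 43 between genes (27.2%), and of the 20 other strain-called sites 3, 10 and 6 did. None of the 6 lay in a promoter, a count of 0, against 22 of all 158 sites (13.9%) and 0 of the 20 other strain-called sites. With 3 sites in each set these are counts with no test.

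Density was higher in BC than in CB at 5 of the 6 members, Ube2w being the exception, and at 152 of all 158 sites (96.2%). The ratio of BC to CB density was 3.48 at Tmem86a, 3.36 at Qrsl1, 2.68 at Cmtm4, 1.78 at Arhgef10, 1.58 at Ccdc11 and 0.905 at Ube2w, against a median of 2.79 over all sites. Divided by that median, the ratio was above 1 at Qrsl1 and Tmem86a alone among the members.

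The share that each site took of all allele-specific reads, strains summed, was compared between the libraries with a two-sided Fisher's exact test. It is made from the same reads that chose the members, and the libraries have no replicate, so its calls are given as a description of these libraries. The Ube2w site took 0.209% of them in BC and 0.559% in CB, a ratio of odds of 0.372, and was 1 of 6 members called at a Benjamini-Hochberg adjusted p under 0.05. Among the 116 sites tested, 50 (43.1%) were called, 21 (18.1%) higher in BC and 29 (25.0%) higher in CB, and nothing is read from the members' count. The call at Ube2w rests on 22 reads in BC and 33 in CB, and it was lost when all read counts were halved and at an unadjusted p under 0.0001.

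**Figure D4:**
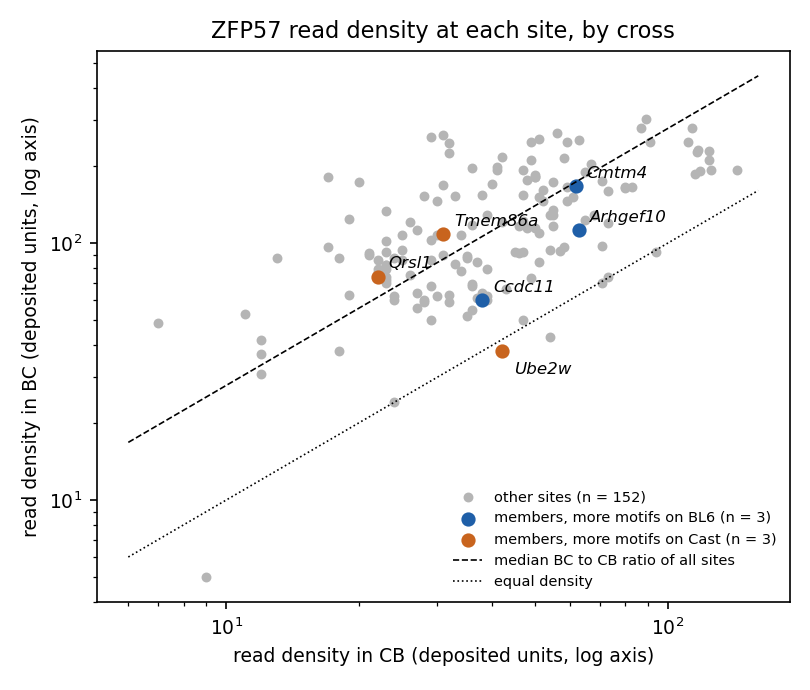
Deposited ZFP57 read density in BC (vertical axis, log scale) against that in CB (horizontal axis, log scale) at the 158 sites, grey for the 152 other sites, blue for members with more motifs on BL6 and orange for those with more on Cast. The dashed line is the median BC to CB ratio of 2.79, the dotted line equal density, and Ube2w is the member below the dotted line.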

How the data were processed

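ZFP57 ChIP-seq was analysed from 1 library per cross, and the 2 input libraries were not used here. The authors aligned single-end reads with Bowtie (version not given in the sources used here) to NCBIM37 and to a Cast version of it carrying known single nucleotide differences, and kept reads with a unique position. They called peaks with MACS, using the inputs as controls, and kept peaks by density rank or ChIP-qPCR. They left out peaks without a binding motif and peaks over simple DNA repeats. The deposited allele-specific values are counts of whole reads per site. The deposited densities and percentile ranks were treated as scores, since the authors scaled densities by peak length and aligned reads and rounded them, although the header calls them reads. Allele-specific reads exceeded the density at 27 sites in BC and 56 in CB, so the 2 columns are on different scales. Of 158 sites, 41 had allele-specific counts of 0 and 1 had no allele-specific value. The authors' columns of p-values for parental and strain origin, and of the resulting calls, were not used.

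Fisher's exact tests and intervals were computed with SciPy 1.17.1 in Python 3.11.15, and the tests of parental and strain origin were tested on simulated data. The tests of parental origin and of each site's share of reads by library were planned as independent of how the members were chosen, but they use the same reads by cross, so their counts are given as a description. Wilson and Newcombe intervals were set at 95%, and a count of 0 was given the limit of 3 reads. BL6 and Cast fragments sequenced by the study were aligned to NCBIM37 with Biopython 1.88. A strain difference was counted where the BL6 fragment matched the genome and Cast did not, and 20 bases at each end were left out when the BL6 fragment was compared with the genome; both choices were made after a first alignment had been seen. Genes were taken from GENCODE M1, of the same build, using the protein-coding transcript with most coding bases. No sequence is printed for Ccdc11. Alternatives were other thresholds, adjustment, halved counts, another exact test, other reference sites and other windows for motifs. Sites named are the 6 members, for each the strain-called site with the nearest BL6 shares, the sites at the edge of the strain threshold and 8 pathway genes. The members and lists were chosen with earlier results of these data known.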

Additional observations from a re-analysis of the deposited data

How the results depend on the processing

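The count of members called by parental origin, which the choice of members held down in these same reads, was 0 under p under 0.01, adjustment, halved read counts and Boschloo's exact test, beside 26.7%, 26.7%, 19.0% and 22.4% of the 116 sites tested, and says nothing of stability. The test of strain origin, which chose the members, was passed by 6 under a threshold of 0.000001 (21.6% of the 116 sites) and under adjustment (36.2%), by 5 with halved reads (without Ccdc11; 18.1%), and 4 members were left when at least 80% of the reads in each cross had to come from 1 strain (without Ccdc11 and Tmem86a; 16.4%). The 1 member called by its share of reads in each library, Ube2w, was also called with biallelic sites as the reference (41.4% of the 116 sites), and the count was 0 with halved reads (15.5%) and 0 at p under 0.0001 (13.8%), settings under which few of any 6 sites would be called. The median BC to CB ratio of the members was 2.23 by density, 0.917 by allele-specific reads relative to the other sites and 0.798 by density relative to the median of all sites; the last 2 are on a scale where other sites lie near 1. A motif difference was found in 5 members inside the site, in 5 with 100 bp added on each side, in 5 for TGCCGCR alone and in 6 over the sequenced fragment. The mean of the crosses, weighted equally, gave a median share on the strain with more motifs of 91.4%, against 92.1% for pooled reads. Depth limits these results: with 22 to 126 reads per site and cross, shares have wide intervals, and no replicate exists to give the spread between libraries.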
